A study of Arabidopsis thaliana with 20 samples.

Results

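The replicative histone H3.1 genes of Arabidopsis thaliana are HTR1 (AT5G65360), HTR2 (AT1G09200), HTR3 (AT3G27360), HTR9 (AT5G10400) and HTR13 (AT5G10390). They were taken by name, as 5 of 26206 protein-coding genes measured, and chromatin was read over each gene body and over 500 bp before and after it. The samples were 10-day-old whole seedlings of 2 genotypes, with ChIP-seq for histone H3, H3K4me3, H3K36me3, linker histone H1 and the variant H2A.Z. The h3.3kd plants carried the T-DNA alleles htr4-2 and htr8-2 in 2 of the 3 genes of the variant H3.3, together with an artificial microRNA (amiRNA) against the third, HTR5, driven by the HTR5 promoter. WT plants were Col-0, the background of the mutants. There were 2 replicates per genotype and antibody, 10 libraries per genotype and 20 in all. The sources used here do not say which of the h3.3kd lines gave the ChIP-seq libraries, nor whether the replicates came from separate batches of plants, so p-values measure the spread between these libraries, which may be technical. Whole seedlings hold many cell types, and a mark carried by fewer cells and a mark carried at a lower level per cell cannot be told apart in them.

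Histone H3.1 is the form of H3 made for newly copied DNA. Its genes are transcribed mainly in S phase, and the protein is placed on chromatin behind the replication fork by the chaperone CAF-1. H3.3 is made throughout the cell cycle and replaces H3 outside replication, mostly over transcribed genes. H3K4me3 lies at the start and H3K36me3 along the body of transcribed genes, H2A.Z flanks start sites and covers responsive genes, and H1 binds the linker between nucleosomes.

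All 5 genes lie on the minus strand and have 1 exon. In the RefSeq annotation of TAIR10.1, HTR1 is at chr5:26119859-26120581, HTR2 at chr1:2971571-2972334, HTR3 at chr3:10129105-10129937, HTR9 at chr5:3270172-3270957 and HTR13 at chr5:3268847-3269594. They are 723 to 833 bp long, and each has a coding region of 411 bp. The 5 coding regions share 80.3% to 89.5% of their bases over the 10 pairs, with HTR3 and HTR9 the closest pair and HTR2 and HTR3 the most distant. They nevertheless encode the same 136 residues, with 0 differences between any pair, and differ from the protein of HTR5 and HTR8 at 4 residues. HTR9 and HTR13 are neighbours with 577 bp between them, so the downstream flank of HTR9 and the upstream flank of HTR13 share most of their bases.

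The bases before the annotated starts are shown because plant histone promoters are known for short shared elements, and because the upstream flank is one of the regions compared. Each line gives the 250 bases before the gene start on the strand of the gene (RefSeq, TAIR10.1). Exact matches to the octamer CGCGGATC and the hexamer ACGTCA, both found in plant histone promoters, are in capitals on whichever strand they lie.
HTR1 (chr5:26120582-26120831, minus): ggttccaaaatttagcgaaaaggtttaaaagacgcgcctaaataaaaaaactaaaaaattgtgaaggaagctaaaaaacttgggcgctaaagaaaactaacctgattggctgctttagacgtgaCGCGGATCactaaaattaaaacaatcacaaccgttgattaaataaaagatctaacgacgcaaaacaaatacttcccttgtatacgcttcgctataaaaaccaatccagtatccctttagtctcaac
HTR2 (chr1:2972335-2972584, minus): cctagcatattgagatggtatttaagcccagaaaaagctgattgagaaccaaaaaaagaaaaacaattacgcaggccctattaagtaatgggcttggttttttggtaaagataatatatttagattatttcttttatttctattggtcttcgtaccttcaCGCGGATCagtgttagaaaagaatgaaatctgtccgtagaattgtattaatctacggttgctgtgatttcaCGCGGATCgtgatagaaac
HTR3 (chr3:10129938-10130187, minus): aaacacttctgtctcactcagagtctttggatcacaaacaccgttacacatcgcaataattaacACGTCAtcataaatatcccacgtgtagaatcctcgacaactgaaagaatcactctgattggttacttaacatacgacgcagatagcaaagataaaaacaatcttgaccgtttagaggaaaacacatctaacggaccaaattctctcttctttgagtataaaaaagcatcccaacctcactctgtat
HTR9 (chr5:3270958-3271207, minus): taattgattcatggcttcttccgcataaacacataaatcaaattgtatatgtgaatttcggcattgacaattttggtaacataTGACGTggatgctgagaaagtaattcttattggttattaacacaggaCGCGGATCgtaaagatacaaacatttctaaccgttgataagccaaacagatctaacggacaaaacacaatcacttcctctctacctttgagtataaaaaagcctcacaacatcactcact
HTR13 (chr5:3269595-3269844, minus): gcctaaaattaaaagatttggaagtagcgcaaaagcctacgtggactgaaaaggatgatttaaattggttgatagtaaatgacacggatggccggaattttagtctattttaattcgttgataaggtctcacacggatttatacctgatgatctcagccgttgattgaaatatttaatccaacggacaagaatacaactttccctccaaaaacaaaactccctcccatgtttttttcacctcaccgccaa

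The octamer was present before 3 of the 5 genes, HTR1, HTR2 and HTR9, and before 35 of all 26206 genes (0.134%) in a window of the same length and with both strands searched. HTR2 held it at 2 places, with the first base of the match 90 and 19 bases before the start, against 126 bases in HTR1 and 120 bases in HTR9. The hexamer was present before HTR3 and HTR9 and before 7.79% of all genes. The nonamer CATCCAACG (0.156% of all genes) and the E2F-type sites TTTCCCGC and TTTGGCGC (0.969% of all genes for either) had no exact match in these windows of the 5 genes.

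The knockdown was aimed at HTR5, and the sequences of the 2 designed amiRNAs allow their distance from the H3.1 transcripts to be given. The set below shows amiR-HTR5-II and the closest stretch of 21 bases in HTR9, in HTR3 and in the intended target HTR5, on the strand of the transcript, with bases that do not pair with the amiRNA in capitals.
amiR-HTR5-II: ttccagtagacttacgcgctg
HTR9: cagcTcgtaaAtcCacCggaG
HTR3: cagcTAgAaaAtcCacCggaG
HTR5: cagcTcgtaagtctactggaG
The closest stretch had 5 unpaired bases in HTR9, 7 in HTR3 and HTR13 and 8 in HTR1 and HTR2, against 2 in HTR5. For the other design, amiR-HTR5-I, the closest stretches of the 5 H3.1 genes had 8 to 10 unpaired bases and that of HTR5 had 1. G:U pairs were counted as unpaired.

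Depth was 10829576 to 68090065 reads per library in h3.3kd and 8688846 to 53927583 in WT, and the shallowest library was replicate 2 of H3 in WT. The 4 libraries that make up replicate 2 of H2A.Z and of H3K4me3 were listed in another way (without strand), so values are given by replicate number throughout. Over HTR8, a stretch of 95 bp (chr5:3472947-3473041) had no read start in any of the 10 h3.3kd libraries and 499 in WT. Over HTR4, a stretch of 46 bp (chr4:18555919-18555964) had no read start in h3.3kd and 238 in WT. The longest empty stretch of HTR5, which is not disrupted by an insertion, was 2 bp in h3.3kd and 3 bp in WT.

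Because the 5 coding regions are near copies and reads that map to more than 1 place had been removed, it was checked where reads could be placed. All start positions of HTR1, HTR2 and HTR13 gave a sequence of 50 bases that occurs once in the genome. In HTR3 and HTR9, 10 positions each were repeated exactly, which left 98.8% and 98.7% of the 2 gene bodies. Reads had been allowed 2 mismatches, and with that allowance 8.64% of the positions in the HTR3 body and 9.67% in the HTR9 body had a second place in the genome, against 0.262% to 1.66% in the other 3 gene bodies. How many reads were lost there was not tested. All flanks were fully unique by exact match. The gene body of HTR3 shares 328 bp at its 5′ end with the annotated gene SDH2-1 on the same strand, so its values are partly those of both genes. Reads at the same coordinates had also been removed, which sets a ceiling of 1 read per position and strand. The gene bodies of the 5 members held 4.86% to 90.6% of the reads that this ceiling allows (median 18.1%). The share was highest in replicate 2 of H3K4me3, at 74.9% to 90.6% in h3.3kd and 61.2% to 81.7% in WT, and in replicate 2 of H2A.Z, at 54.7% to 76.1% in h3.3kd and 47.0% to 63.9% in WT. In replicate 1 it was 22.1% to 31.3% in h3.3kd and 23.6% to 33.3% in WT for H3K4me3, and 21.5% to 34.8% in h3.3kd and 18.3% to 27.8% in WT for H2A.Z. For H3K36me3 the share was 8.83% to 17.2% in h3.3kd and 19.8% to 26.6% in WT in replicate 1. In replicate 2 of H3K36me3 it was 13.9% to 21.4% in h3.3kd and 16.2% to 24.6% in WT. Levels near the ceiling are compressed, and its part in the differences below was not tested beyond giving the 2 replicate numbers apart.

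In WT the 5 gene bodies were rich in H3K4me3 and H2A.Z, and 4 of them had a low mean of H1 over H3. Levels of a mark are given as log2 of its reads over those of H3 in the same region. Each library was scaled to 1000000 reads and 0.1 was added. This takes gene length out of the read counts, but not out of where along a body a mark lies. The percentiles were not matched for gene length. For H3K4me3 over H3, the WT mean was 1.33 ± 0.09 in HTR1, 1.09 ± 0.23 in HTR3, 0.90 ± 0.10 in HTR2, 0.89 ± 0.01 in HTR9 and 0.82 ± 0.13 in HTR13 (SD, n = 2 libraries each), against a median of 0.40 over all genes. These levels lay at the 91.2 to 99.9 percentile of all genes. HTR1 was above HTR2, HTR9 and HTR13 by more than these spreads, whereas HTR2, HTR9 and HTR13 did not differ from each other beyond theirs. Such WT levels were not particular to the H3.1 genes. For H3K4me3 over H3, the WT median was 1.04 in 8 H4 genes, 1.17 in 4 canonical H2A genes and 0.81 in 11 H2B genes. In the same order it was 0.75, 0.62 and 0.82 for H2A.Z over H3 (all genes 0.32), and -0.54, -0.41 and -0.56 for H1 over H3.

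H2A.Z over H3 in WT had another order among the members. It was 1.22 ± 0.19 in HTR13, 1.13 ± 0.23 in HTR9, 1.06 ± 0.07 in HTR1, 1.06 ± 0.46 in HTR2 and 0.89 ± 0.38 in HTR3 (SD, n = 2 each), at the 85.2 to 98.2 percentile of all genes, and no neighbours in this order differed beyond their spread. H3K36me3 over H3 separated the members into 2 levels. It was 1.06 ± 0.23 in HTR1, 0.92 in both WT libraries of HTR3 and 0.81 ± 0.01 in HTR2, at the 85.0 to 98.5 percentile, but 0.52 ± 0.20 in HTR9 and 0.50 ± 0.09 in HTR13, the 2 neighbours on chromosome 5, at the 60.0 and 58.7 percentile.

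H1 over H3 was -0.13 ± 0.49 in HTR13 and between -0.43 and -0.58 in the other 4 members in WT, against 0.01 for the median gene, which put these 4 at the 4.46 to 8.47 percentile. The 2 WT libraries differed for every member by more than the members differed from each other, with HTR1 at -0.89 in replicate 1 and -0.02 in replicate 2. By H1 reads per mappable kb, without H3, the members lay at the 3.94 to 29.5 percentile in WT replicate 1 but at the 57.6 to 98.9 percentile in WT replicate 2. H3 itself was dense over the bodies by the WT mean. The members had 10.4 to 12.2 reads per kb of mappable positions per 1000000 reads in WT, at the 79.6 to 98.5 percentile, against 9.60 for the median gene. HTR3, the lowest, differed by library, with 8.58 (28.5 percentile) in WT replicate 1 and 12.3 (94.3 percentile) in WT replicate 2. Its mean in h3.3kd was 9.87, at the 41.1 percentile.

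**Figure D1:**
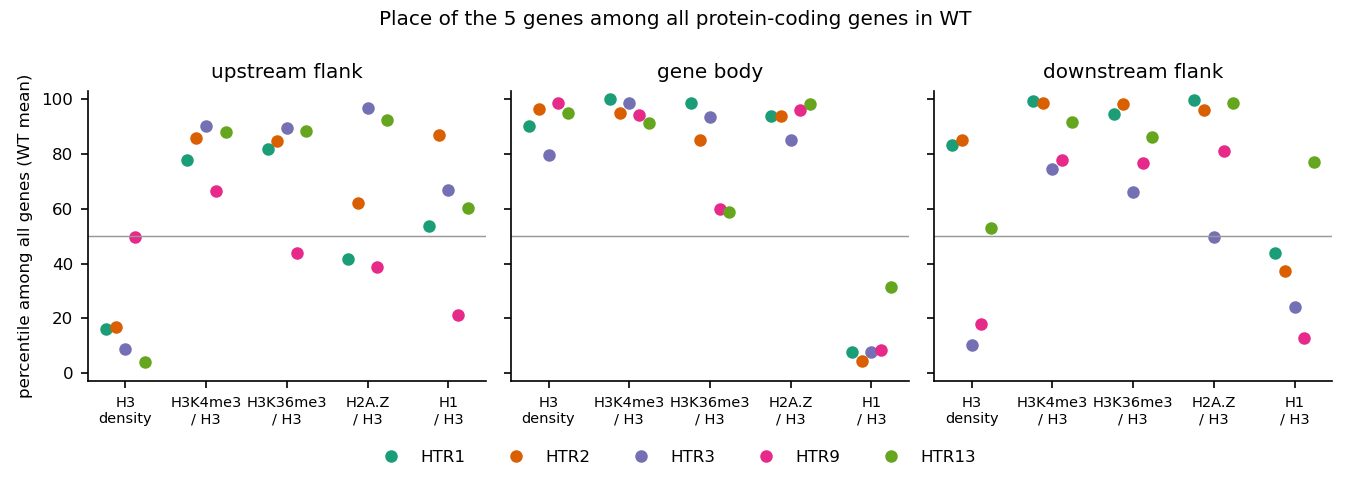
Percentile of each of the 5 H3.1 genes among all protein-coding genes in WT (y axis, mean of 2 libraries; the grey line is the median gene), for H3 reads per mappable kb and for log2 of each mark over H3 (x axis), in the upstream flank, gene body and downstream flank. The gene bodies sit at the 91.2 to 99.9 percentile for H3K4me3 and at the 85.2 to 98.2 percentile for H2A.Z, while 4 of the 5 are under the 8.5 percentile for H1.

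Along the genes, the reads of the 5 members were added up by distance from the annotated start. H3 was lower before the start than from 200 to 450 bp after it. The last 200 bp before the start held 2.73 and 1.59 H3 reads per 1000000 and 100 bp in the h3.3kd libraries and 2.43 and 2.76 in the WT libraries. The zone from 200 to 450 bp after the start held 6.43 and 9.09 in h3.3kd and 6.18 and 6.68 in WT, which was higher in all 4 libraries. Farther upstream, from 500 to 200 bp before the start, the values were 2.98 and 1.95 in h3.3kd and 2.31 and 4.57 in WT. WT replicate 1 thus had no dip in the last 200 bp, and in the other 3 libraries the last 200 bp were the lower of the 2 upstream zones.

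H2A.Z over H3 was highest in WT within the transcribed region. From 200 to 450 bp after the start it was 1.04 and 0.45 in h3.3kd and 1.47 and 1.17 in WT, and from 450 to 700 bp it was 0.82 and 0.54 in h3.3kd and 1.20 and 0.92 in WT. Both h3.3kd libraries lay below both WT libraries in these 2 zones. They did so too from 700 to 1300 bp, mostly past the gene ends, with 0.62 and 0.57 in h3.3kd and 1.09 and 0.70 in WT. In the first 200 bp after the start the genotypes overlapped, with 1.06 and 0.33 in h3.3kd and 1.11 and 0.71 in WT. H3K36me3 over H3 differed in the opposite direction near the start. In the first 200 bp it was 1.17 and 0.78 in h3.3kd and 0.54 and 0.60 in WT, with no overlap, whereas from 450 to 700 bp the values overlapped at 1.09 and 0.98 in h3.3kd and 0.81 and 1.05 in WT. For H3K4me3 over H3, the zone from 200 to 450 bp held 1.25 and 0.84 in h3.3kd and 1.17 and 1.23 in WT, which overlapped. These zones were read in the members only, so the share of all genes without overlap is not known for them. Over whole gene bodies, 27% of all genes were below WT without overlap for H2A.Z, and 8.55% above for H3K36me3.

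**Figure D2:**
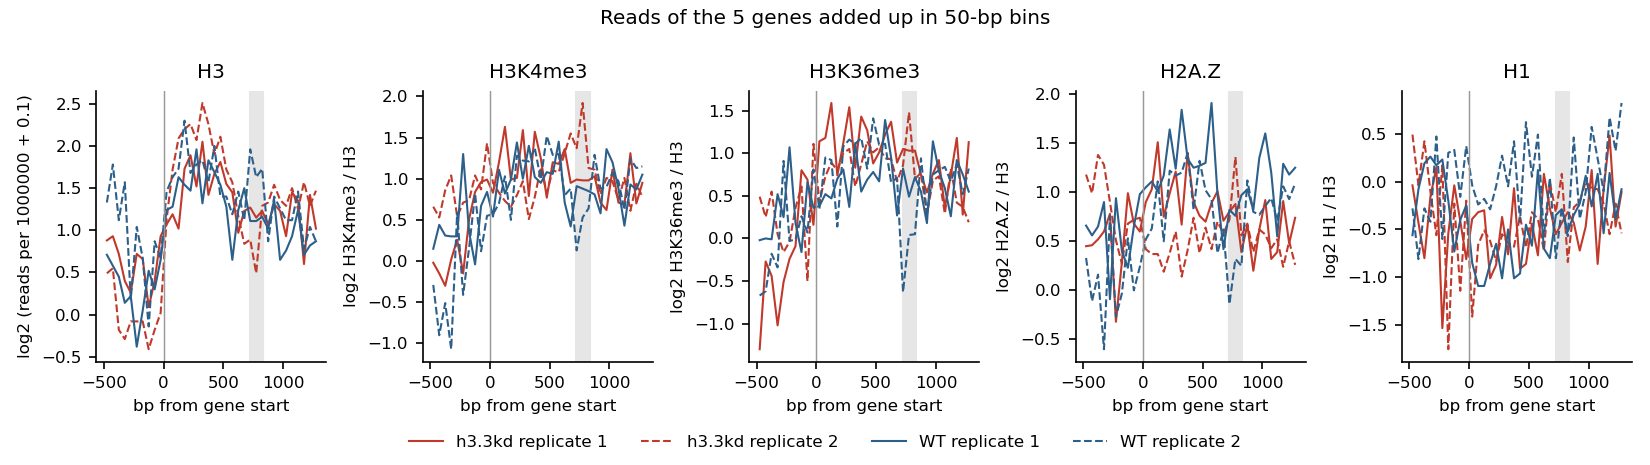
Reads of the 5 H3.1 genes added up in 50-bp bins by distance from the annotated start (x axis, bp), as log2 reads per 1000000 for H3 and as log2 of each mark over H3 (y axis). Each line is 1 library, red for h3.3kd and blue for WT, solid for replicate 1 and dashed for replicate 2, and the grey band marks where the 5 genes end. The H2A.Z lines of WT run above those of h3.3kd with the same replicate number in most bins from 200 to 600 bp. The H3 lines of all libraries are higher from 200 to 450 bp after the start than in the last 200 bp before it. In WT replicate 2, some H3 bins farther upstream are as high as bins within the genes.

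The comparison of h3.3kd with WT asks whether the chromatin of the genes for the replicative form differs in plants with a knockdown of the replacement form. None of the 5 gene bodies passed the test for any antibody. The direction of the difference was shared by all 5 members for H2A.Z, which was lower in h3.3kd, and for H3K36me3, which was higher. Gene by gene, limma compared 2 h3.3kd with 2 WT libraries over all genes, p-values were adjusted by the Benjamini-Hochberg method, a gene was called under 0.05, and differences below are h3.3kd minus WT on the log2 scale.

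H2A.Z over H3 was most different in HTR2. The HTR2 body had 0.65 and -0.03 in h3.3kd replicates 1 and 2, against 1.38 and 0.73 in WT. The HTR1 body had 0.65 and 0.61 in h3.3kd, against 1.11 and 1.01 in WT. In both genes the 2 genotypes did not overlap, and both replicate numbers gave a difference of the same size, -0.74 and -0.76 in HTR2 and -0.45 and -0.39 in HTR1. The difference was -0.75 ± 0.27 in HTR2 (SE, limma adjusted p = 0.529) and -0.42 ± 0.23 in HTR1 (SE, limma adjusted p = 0.649).

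In the other 3 members the ranges overlapped. HTR13 had 1.13 and 0.62 in h3.3kd and 1.35 and 1.09 in WT, a difference of -0.35. HTR9 had 1.19 and 0.64 in h3.3kd and 1.30 and 0.96 in WT, a difference of -0.22. HTR3 had 1.01 and 0.52 in h3.3kd and 1.16 and 0.61 in WT, a difference of -0.12. Within replicate 1 and within replicate 2, h3.3kd was the lower of the pair in 5 of 5 members. The numbers do not establish a pairing, and in HTR3, HTR9 and HTR13 h3.3kd replicate 1 lay above WT replicate 2. The share of all genes lower or higher within each replicate number was not counted, here or for the other antibodies.

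The median difference in H2A.Z over the 5 members was -0.35, with -0.22 within replicate 1 and -0.39 within replicate 2. Over all genes the median was -0.06, with -0.02 and -0.11 by replicate number, and 59.8% of all genes were lower in h3.3kd. The test called 0 of 5 members, and 0% of 26045 genes, while 2164 genes, HTR2 among them, had an unadjusted p under 0.05. Both h3.3kd libraries were below both WT libraries in 2 of 5 members and in 27% of all genes, and above them in 0 of 5 members and 12.8% of all genes. Without WT replicate 2, HTR2 passed the test at -1.08 (limma adjusted p = 0.00556, in a range of 0.00556 to 1.00 over all settings), but 6.18% of all genes then did so too. With h3.3kd replicate 2 left out, the median over the members was -0.09 and HTR3 and HTR9 were at 0.12 and 0.06, and without the H3 denominator the median was -0.19.

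H3K36me3 over H3 was higher in all 5 members. HTR2 had 1.59 and 0.88 in h3.3kd, against 0.80 and 0.81 in WT. HTR13 had 0.82 and 0.79 in h3.3kd, against 0.43 and 0.56 in WT. HTR1 had 1.37 and 1.35 in h3.3kd, against 0.89 and 1.22 in WT. In these 3 genes both h3.3kd libraries lay above both WT libraries, as in 8.55% of all genes, and in none of the 5 did they lie below, as in 16.6% of all genes.

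The difference in H3K36me3 was 0.43 ± 0.35 in HTR2, 0.31 ± 0.24 in HTR13 and 0.30 ± 0.47 in HTR1 (SE, limma adjusted p = 1.00 each). It was 0.10 in HTR3 and 0.09 in HTR9, whose genotypes overlapped. The median over the members was 0.30, against -0.07 over all genes, of which 39.8% were higher in h3.3kd. Most of it came from replicate 1, where h3.3kd was higher in 5 of 5 members with a median of 0.39, against 3 of 5 members and a median of 0.06 in replicate 2. The H3K36me3 library of replicate 1 held 10829576 reads in h3.3kd and 27138447 in WT. The part of depth and of the ceiling in the difference was not tested. The test called 0 of 5 members and 0.0307% of all genes, and 780 genes had an unadjusted p under 0.05. The median was 0.13 when h3.3kd replicate 1 was left out, 0.14 when WT replicate 1 was, and 0.46 without the H3 denominator.

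The differences in H3K4me3 over H3 were within the spread of the libraries. The values were 1.29 and 1.28 in h3.3kd and 1.26 and 1.39 in WT for HTR1, the member with the highest level. HTR2 had the widest spread, with 1.32 and 0.61 in h3.3kd and 0.97 and 0.84 in WT. HTR3 had 1.38 and 1.21 in h3.3kd and 1.26 and 0.93 in WT, and its difference of 0.20 ± 0.21 (SE, limma adjusted p = 1.00) was the highest of the 5. All 5 members overlapped between the genotypes. Both h3.3kd libraries were above both WT libraries in 14.3% of all genes, and below them in 16.1%. The median difference was 0.05 in the members and -0.04 over all genes, and the test called 0 of 5 members and 0.0269% of all genes (0 members and 1306 genes had an unadjusted p under 0.05).

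H1 over H3 gave a different sign by replicate number in 4 of 5 members. HTR2 had -0.85 and -1.17 in h3.3kd and -0.88 and -0.28 in WT, and HTR3 had -0.73 and -0.92 in h3.3kd and -0.84 and -0.06 in WT. Within replicate 1, h3.3kd was lower in 1 of 5 members, and within replicate 2 it was lower in 5 of 5. The members' median was 0.11 in replicate 1 and -0.46 in replicate 2, while that over all genes was 0.08 and -0.16. The 2 genotypes overlapped in all 5 members. Both h3.3kd libraries were above both WT libraries in 8.68% of all genes and below them in 18.1%. The test called 0 of 5 members and 0% of all genes (0 members and 571 genes had an unadjusted p under 0.05).

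For H3 alone, the gene body values are log2 reads per 1000000. HTR1 had 3.15 and 3.18 in h3.3kd and 2.94 and 3.07 in WT, and HTR13 had 3.19 and 3.39 in h3.3kd and 3.03 and 3.18 in WT. These 2 members were higher in h3.3kd without overlap, as were 26.5% of all genes. In none of the 5 were both h3.3kd libraries below both WT libraries, as in 5.01% of all genes. The differences ranged from -0.07 in HTR3 to 0.20 in HTR2, with a median of 0.16 in the members and 0.09 over all genes, and 0 members and 0% of all genes were called (0 members and 779 genes had an unadjusted p under 0.05). The members held 110 to 197 H3 reads in h3.3kd and 72 to 138 in WT, and H1 was as thin, with 80 to 155 reads in h3.3kd and 112 to 192 in WT.

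**Figure D3:**
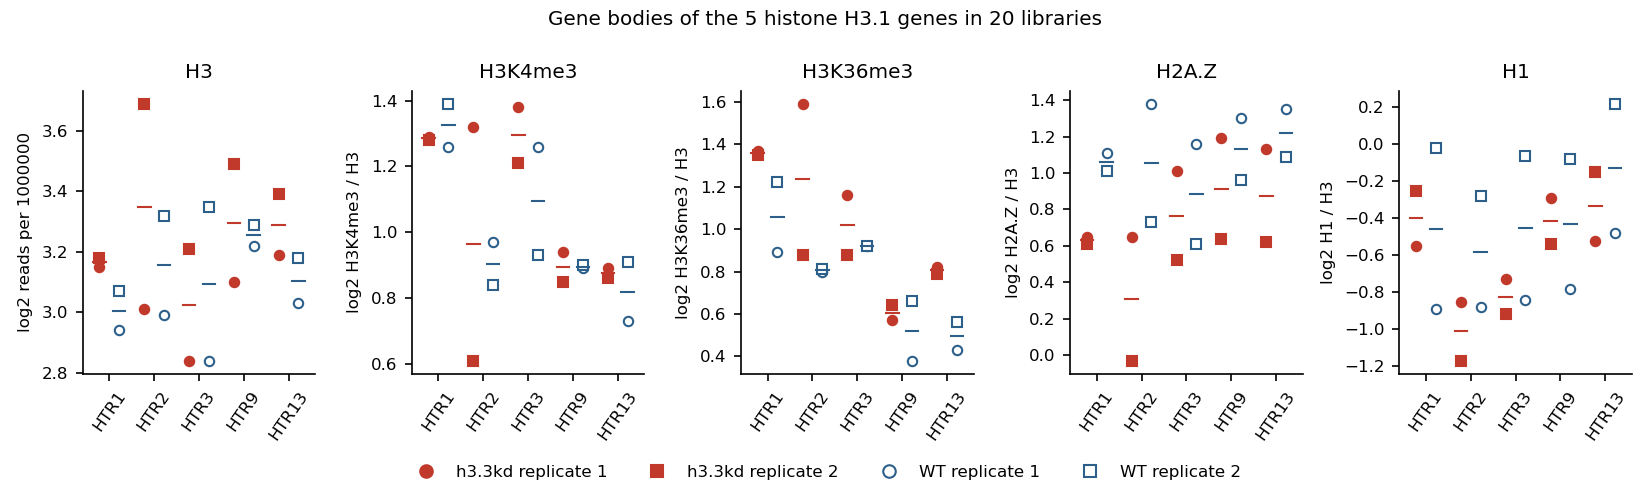
Gene body values of the 5 H3.1 genes in all 20 libraries (y axis: log2 reads per 1000000 for H3, log2 of the mark over H3 for the others). Red filled symbols are h3.3kd and blue open symbols WT, circles replicate 1 and squares replicate 2, and short lines are means of 2 libraries. For H2A.Z, HTR2 lies at 0.65 and -0.03 in h3.3kd and at 1.38 and 0.73 in WT.

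**Figure D4:**
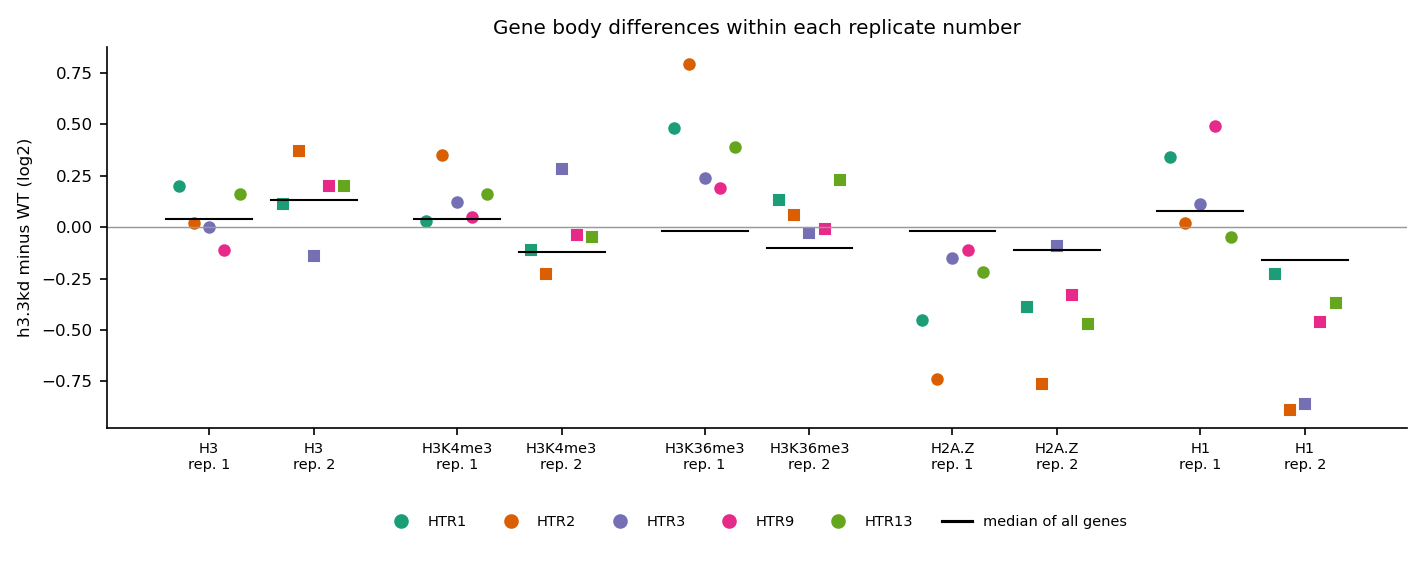
Difference of h3.3kd minus WT in the gene body (y axis, log2) within replicate 1 (circles) and replicate 2 (squares) for each antibody (x axis), with 1 point per H3.1 gene and a black line for the median of all genes. All 10 points for H2A.Z are below 0, and for H1 the points of 4 of the 5 genes change side between the replicate numbers, those of HTR13 being at -0.05 and -0.37. The replicate numbers do not establish a pairing.

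In the upstream flanks the H3 libraries of the 2 replicate numbers disagreed. The members' median difference of the ratio also changed sign between the replicate numbers for H3K4me3, H3K36me3 and H2A.Z. For H1 over H3 it was -0.36 and -0.08, and the part of H3 in the ratios was not tested. The members' median difference in H3 over this flank was 0.33 within replicate 1 and -1.06 within replicate 2, and that of all genes was 0.08 and -0.74. HTR9 had 1.73 and 0.89 log2 reads per 1000000 of H3 in h3.3kd and 1.54 and 2.30 in WT. HTR1 was the member without overlap, with 1.07 and 0.94 in h3.3kd and 1.28 and 2.00 in WT, below WT as were 28% of all genes. Over this flank, 21 to 55 H3 reads per member lay behind each value in h3.3kd and 26 to 42 in WT.

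H3K4me3 over H3 before HTR1 was 0.79 and 0.69 in h3.3kd and 0.32 and -0.50 in WT, a difference of 0.83. It was the member of 5 whose h3.3kd libraries were both above WT, as in 26.1% of all genes. H2A.Z over H3 before HTR1 was 0.59 and 0.59 in h3.3kd and -0.04 and -0.28 in WT, a difference of 0.75. HTR9 was also above WT for H2A.Z, with 0.09 and 0.83 in h3.3kd and 0.05 and -0.45 in WT, so 2 of 5 members were, against 30.4% of all genes.

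These upstream differences in H3K4me3 and H2A.Z had the sign of the median gene. The median was 0.50 in the members and 0.31 over all genes for H3K4me3, and 0.58 in the members and 0.32 over all genes for H2A.Z. With replicate 1 of H3 as the denominator of both replicates, the members' medians became -0.27 and -0.34, and without WT replicate 2 that of H3K4me3 was 0.05. H3K36me3 over H3 was higher before HTR9, at -0.26 and 0.19 in h3.3kd and -0.35 and -0.71 in WT (14% of all genes), and lower before HTR13, at -0.33 and -0.27 in h3.3kd and 0.36 and 0.29 in WT (12.6% of all genes). H1 over H3 was lower without overlap before HTR1 and HTR9, at -0.72 and -0.26 in h3.3kd and -0.18 in both WT libraries for HTR1 (8.21% of all genes). The median for H1 was -0.22 in the members, 4 of 5 of them lower, against 0.13 over all genes, of which 65.4% were higher in h3.3kd.

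In the upstream flank the test called 0 of 5 members for each antibody. It called 0% of all genes for H3, H2A.Z and H1, 0.0347% for H3K4me3 and 0.0154% for H3K36me3. Before adjustment, 404 genes for H3, 1308 for H2A.Z and 606 for H1 had p under 0.05, none of them a member. The number was 723 for H3K36me3, with no member among them, and 1427 for H3K4me3, with HTR1 among them. Without WT replicate 1, HTR1 and HTR2 were called for H3K4me3, at 1.23 and 0.95 (limma adjusted p = 0.0057 and 0.033), together with 30.8% of all genes. The upstream flank of HTR3 lies within the annotated gene SDH2-1 over all 500 bp, and that of HTR2 holds 197 bp of CRT1b, so their values are shared with these genes.

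Among the downstream flanks, that of HTR3 had the largest difference of the 5 for H3K4me3 and H3K36me3. H3K4me3 over H3 after HTR3 was 0.70 and 1.21 in h3.3kd and 0.26 and -0.30 in WT, a difference of 0.98. H3K36me3 over H3 was 0.37 and 0.96 in h3.3kd and 0.14 and -0.39 in WT, a difference of 0.79. H2A.Z over H3 was 0.60 and 0.72 in h3.3kd and 0.39 and -0.39 in WT, a difference of 0.66. H3 there was 1.15 and 0.55 log2 reads per 1000000 in h3.3kd and 1.24 and 2.09 in WT, so the denominator was lower in h3.3kd, without overlap and mainly in replicate 2, where it rested on 21 reads in h3.3kd and 36 in WT.

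For H2A.Z the other members pointed the other way, as in their gene bodies, except HTR9. HTR1 had 0.84 and 0.24 in h3.3kd and 1.13 and 1.48 in WT after its end, a difference of -0.77. HTR13 had 0.16 and 0.86 in h3.3kd and 1.21 and 1.11 in WT, a difference of -0.65. HTR2 had 0.59 and 0.50 in h3.3kd and 1.11 and 0.81 in WT, a difference of -0.41. In these 3 of 5 members both h3.3kd libraries were below both WT libraries, as in 7.9% of all genes, while HTR3 was above, as were 29.8% of all genes. The median difference in this flank was -0.41 in the members, against 0.22 over all genes.

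The downstream flank of HTR1 holds 467 bp of HTR11, another H3 gene, that of HTR13 holds 467 bp of RING1 and that of HTR2 holds 498 bp of AT1G09195. That of HTR3 holds 152 bp of AT3G27350 and 172 bp of AT3G27355, so the values there are shared with these genes. H1 over H3 after HTR13 was -0.56 and -0.39 in h3.3kd and 0.14 and 0.40 in WT, a difference of -0.75, and it was the member without overlap, as 13.2% of all genes were on that side. H3 was above WT without overlap after HTR2 and HTR13 (9.54% of all genes) and below after HTR3 (22.4%). H3K4me3 was above WT after HTR3 and HTR9 (18.6%), and H3K36me3 was above after HTR3 (10.4%) and below after HTR9 (18.8%).

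In the downstream flank the test called 0 of 5 members for each antibody. It called 0.00386% of all genes for H3, 0.0771% for H3K4me3, 0.0231% for H3K36me3 and 0% for H2A.Z and H1. Before adjustment, p was under 0.05 in 1203 genes for H3K4me3 and in 934 for H3K36me3, HTR3 among both, in 1672 genes for H2A.Z, HTR1 among them, in 654 genes for H1, HTR13 among them, and in 686 genes for H3, with no member among them. Without WT replicate 1, HTR3 was called for H3K4me3 at 1.26 (limma adjusted p = 0.00571), together with 11.3% of all genes.

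Other histone genes were read in the same way, from lists chosen by function. None of their gene bodies was called for any antibody. The 8 other H3 genes measured, of 9 listed (HTR15, at 396 bp, was too short), include HTR4, HTR5 and HTR8, which encode H3.3. In WT, H2A.Z over H3 was 0.89 to 1.22 in the 5 H3.1 genes, against -0.68 in HTR5, -0.16 in HTR8 and 0.31 in HTR4. The rest of the list was at 1.32 in HTR11, 1.17 in HTR14, 0.88 in HTR10, 0.75 in HTR12 and 0.60 in HTR6. High levels were thus not particular to the H3.1 genes. HTR5 had 0.01 and 0.27 in h3.3kd and -0.86 and -0.51 in WT, a difference of 0.82 (limma adjusted p = 0.334), and HTR8 had 0.64 and 0.74 in h3.3kd and 0.11 and -0.42 in WT, a difference of 0.85 (limma adjusted p = 0.350). HTR4 had 0.42 and 0.59 in h3.3kd and 0.32 and 0.30 in WT, a smaller difference of 0.19 (limma adjusted p = 0.812). The H2A.Z difference was thus negative in all 5 H3.1 genes and positive in HTR4, HTR5 and HTR8. The contrast between the 2 sets was not tested. In h3.3kd, HTR4 and HTR8 carry T-DNA insertions and HTR5 is the target of the amiRNA, and the part of this in their differences was not tested. At the other end of the list, HTR11, next to HTR1, had 0.81 and 0.20 in h3.3kd and 1.07 and 1.56 in WT, a difference of -0.81 (limma adjusted p = 0.528).

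For the genes of the other core histones, which are made in S phase with H3.1, the median H2A.Z difference was near that of all genes. It was -0.02 over 8 H4 genes (4 higher and 4 lower, -0.36 in AT2G28740 to 0.34 in AT3G53730), -0.01 over 4 canonical H2A genes (2 higher and 2 lower, -0.31 in HTA2 to 0.19 in HTA13) and -0.10 over 11 H2B genes (4 higher and 7 lower, -0.27 in HTB1 to 0.28 in HTB3). The members' median of -0.35 lay below these, and that difference between lists was not tested.

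For H3K36me3, 4 of 4 canonical H2A genes and 9 of 11 H2B genes were higher in h3.3kd, with medians of 0.42 and 0.31. The H2A genes ran from 0.06 in HTA2 to 0.51 in HTA1, and the H2B genes from -0.21 in HTB8 to 0.72 in HTB5. The H4 genes were split, 4 higher and 4 lower, with a median of 0.06. For H3K4me3, the median was 0.24 over the H4 genes, 8 of 8 of them higher, and AT3G46320 was the highest at 0.66. The median was 0.17 over the H2A genes and 0.14 over the H2B genes, and 42.3% of all genes were higher. The H3 denominator was lower in h3.3kd in 8 of 8 H4 genes, with a median of -0.13 against 0.09 over all genes. Its part in the H3K4me3 differences was not tested.

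A last list held proteins that handle or read H3.1: the CAF-1 subunits FAS1, FAS2 and MSI1, the H3.1 methyltransferases ATXR5 and ATXR6, and TSK, which binds H3.1 after replication. H2A.Z was lower in h3.3kd in 6 of 6, with a median of -0.22 and TSK the lowest at -0.46. H3K36me3 was lower in 4 of 6 (median -0.22), H3K4me3 in 6 of 6 (-0.09) and H1 in 5 of 6 (-0.14). Of all genes, 59.8% were lower for H2A.Z, 60.2% for H3K36me3, 57.7% for H3K4me3 and 61.1% for H1. The H3 denominator was higher in 6 of 6, with a median of 0.18, and in 70.5% of all genes. Its part in these differences was not tested. None of the 6 was called.

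**Figure D5:**
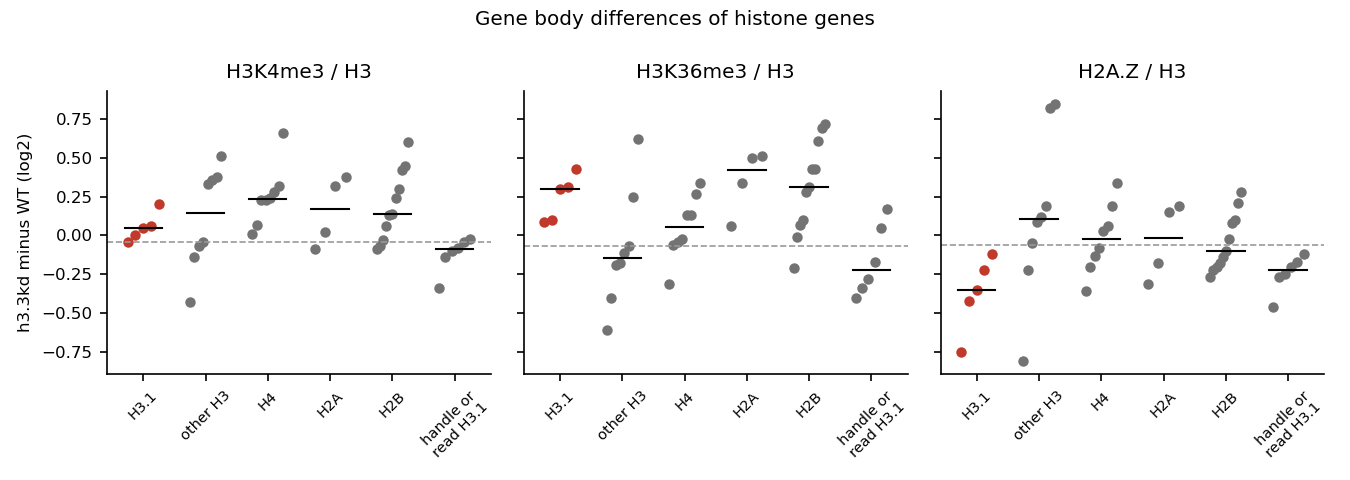
Gene body difference of h3.3kd minus WT (y axis, log2) for H3K4me3, H3K36me3 and H2A.Z over H3, with 1 point per gene, red for the 5 H3.1 genes and grey for the other lists (x axis), black lines for list medians and a dashed line for the median of all genes. For H2A.Z the 5 H3.1 genes lie between -0.75 and -0.12, and HTR5 and HTR8 are the 2 highest points of the other H3 genes at 0.82 and 0.85.

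The genes whose WT chromatin was most like the members' mean were found by the Euclidean distance over 12 values, 4 marks over H3 in 3 windows, among 25830 genes. They were AT5G65990 at 0.625, AT1G02350 at 0.699, AT1G77400 at 0.706, AT2G20940 at 0.721 and CRR6 at 0.782, and the median distance of all genes was 2.71. No histone gene was among them. Ranked by distance to the mean, which they helped to set, the members were at place 20 (HTR13), 40 (HTR2), 111 (HTR1), 322 (HTR9) and 764 (HTR3), and the distance to the mean of the other 4 members was 1.15 in HTR13, 1.25 in HTR2, 1.42 in HTR1, 1.67 in HTR9 and 1.90 in HTR3.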

How the data were processed

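Seedlings of h3.3kd and WT were profiled by ChIP-seq, with single reads. The authors mapped them to TAIR10 with Bowtie, allowed up to 2 mismatches, kept reads with a single place, removed reads at identical coordinates and deposited the list of read positions of each library. The deposited values are positions, in other words neither counts nor a normalized signal. In 4 libraries the lists have no strand and hold up to 2 reads per position. Positions count from 0, and TAIR10.1 has the same nuclear sequence coordinates, so its RefSeq annotation was used. The read length of 50 bp was inferred from the genome: reads at starts that repeat elsewhere made up 0.0634% to 0.193% at 49 bp and 0.0137% to 0.0443% at 50 bp.

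Reads were counted by leftmost base in 26206 protein-coding genes (at least 500 bp long) and flanks of 500 bp, and scaled to 1000000 listed reads. A pseudocount of 0.1 was added before log2, and a fold change on this scale understates that of windows with few reads. Each mark was divided by H3 of its own genotype and replicate number, and windows averaging 10 reads or more were fitted, which all 5 members passed in all windows. Limma 3.58.1 (lmFit, eBayes with trend) in R 4.3.3 gave p-values, adjusted by Benjamini-Hochberg over all genes. The H3 libraries are shared by the 4 marks. The fits were run on simulated reads with independent noise and no ceiling per position. That run gives no measure of their error in the libraries here. Python 3.11.15, numpy 2.4.6, pandas 2.3.3 and matplotlib 3.10.9 did the rest. Members, lists and tests were chosen with earlier results of these data known. The text names the 5 members, the genes of highest and lowest difference in each list, and the 5 genes most alike. Alternatives changed the denominator, pseudocount, library size, centring, reads per position, filter, read position, test, replicate block and libraries. Precision is limited by 2 replicates, and intervals from read counts would cover counting error only.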

Additional observations from a re-analysis of the deposited data

How the results depend on the processing

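Counts of members called stayed at 0 and medians stayed within the replicate spread in most alternatives. Where they did not, the cause was not tested. Without the H3 denominator the members' median became 0.46 in the gene body for H3K36me3, 0.04, -0.50, -0.01 and -0.82 in the upstream flank for H3K4me3, H3K36me3, H2A.Z and H1, and 0.23 and -0.18 in the downstream flank for H3K36me3 and H2A.Z. With replicate 1 of H3 as the denominator it became -0.27, -0.65, -0.34 and -0.73 in the upstream flank for H3K4me3, H3K36me3, H2A.Z and H1, and -0.25 in the downstream flank for H2A.Z, and 1 member was called upstream for H3K36me3 (HTR3) and 1 for H1 (HTR2). With libraries centred on the median gene it became 0.25 for H2A.Z and -0.36 for H1 upstream, and 0.38 for H3 and -0.64 for H2A.Z downstream. Single gene bodies changed sign for HTR9 in H3 (-0.04 when centred, -0.02 with reads moved towards the fragment centre), HTR1 in H3K4me3 (0.12 without the H3 denominator), HTR9 in H3K4me3 (-0.00 with at most 1 read per position) and HTR2 in H3K4me3 (-0.01 with limma-voom).

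Leaving out 1 library at a time moved the median from -0.14 to 0.24 (H3), -0.04 to 0.07 (H3K4me3), 0.13 to 0.37 (H3K36me3), -0.49 to -0.09 (H2A.Z) and -0.56 to 0.14 (H1) in the gene body, -0.99 to -0.14 (H3), 0.05 to 0.90 (H3K4me3), -0.17 to 0.27 (H3K36me3), 0.08 to 0.81 (H2A.Z) and -0.31 to -0.08 (H1) upstream, and 0.12 to 0.25 (H3), -0.16 to 0.29 (H3K4me3), -0.13 to 0.19 (H3K36me3), -0.56 to -0.27 (H2A.Z) and -0.35 to 0.11 (H1) downstream. Both ends for H1 in the gene body and for H3 and H3K4me3 upstream came from the WT libraries, without replicate 2 at 0.14, -0.14 and 0.05 and without replicate 1 at -0.56, -0.99 and 0.90, and H3 upstream was also at -0.14 without h3.3kd replicate 2. Members called ranged from 0 to 1 for H2A.Z in the gene body (HTR2, without WT replicate 2), 0 to 2 for H3K4me3 upstream and 0 to 1 for H3K4me3 downstream (both without WT replicate 1). Single gene bodies that changed sign or call ranged as follows. For H3 they were HTR2 (-0.14 to 0.53), HTR3 (-0.33 to 0.19) and HTR9 (-0.15 to 0.24). For H3K4me3 they were HTR1 (-0.10 to 0.03), HTR2 (-0.30 to 0.42), HTR9 (-0.04 to 0.04) and HTR13 (-0.04 to 0.14). For H3K36me3 they were HTR3 (-0.03 to 0.24) and HTR9 (-0.05 to 0.23). For H2A.Z they were HTR2 (-1.09 to -0.41), HTR3 (-0.39 to 0.15) and HTR9 (-0.49 to 0.06). For H1 they were HTR1 (-0.37 to 0.49), HTR3 (-0.77 to 0.02), HTR9 (-0.33 to 0.37) and HTR13 (-0.56 to 0.14).

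With only 2 pairs, the replicate numbers do not establish a pairing. Same-numbered libraries deviated with correlations across genes of 0.349 for H3K36me3 in the gene body down to -0.271 for H3 downstream. With the replicate number as a block, 0 members were called in any window, and the number of genes called in the gene body was 91 for H3K36me3 and 173 for H2A.Z, against 8 and 0 without it. The crossed pairing, chosen after seeing the data, called 0 members too, and 0 to 2 genes for H3 and 5 for H3K36me3 in the flanks where numbers deviated in opposite directions. Over all alternatives, genes called in the gene body ranged from 0 to 4296 for H3, 0 to 2322 for H3K4me3, 0 to 91 for H3K36me3, 0 to 1672 for H2A.Z and 0 to 1017 for H1. In the thinnest flank of a member there were 17 reads of H1 (before HTR9), and 21 reads of H3, the denominator of the 4 marks.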
